A study of Caenorhabditis elegans with 5 samples.

Results

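Small nucleolar RNAs (snoRNAs) guide chemical modification of other RNAs, above all ribosomal RNA. Those of the C/D class guide 2'-O-methylation, those of the H/ACA class guide pseudouridylation, and each works in a particle with a fixed set of proteins. In C. elegans many snoRNA genes lie in introns of protein-coding genes and others lie between genes, and RNA polymerase III, the enzyme that transcribes tRNA genes, has been mapped at a set of snoRNA genes. The A box and B box named here are the internal promoter elements of tRNA genes.

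The regions described here are 248 of the 24869 nuclear peaks of the pooled ATTF-4 ChIP-seq list, chosen because their summit lay within 500 bp of an annotated snoRNA gene. The choice used position alone, so signal, replicate ranks, place within the window and sequence were free to vary. Including mitochondrial intervals the pooled list held 24897 peaks. ATTF-4 is a protein with AT-hooks, short motifs that contact the minor groove of DNA. It was mapped in whole L4 larvae, both sexes pooled, of strain OP219, genotype unc-119(ed3) III; wgIs219, which stably carries the gene fused at its C terminus to GFP and FLAG. There were 3 biological replicates in a single group, sequenced as 5 libraries (replicate 1 once, replicates 2 and 3 as 2 technical libraries each), and no untagged or other-stage group was analysed here. Whole larvae mix all tissues, and read depth is unknown because the lists hold no counts. Nothing in the labels says whether the replicates are separate cultures, so tests over them measure the spread between these samples, which may be technical. The pooled and replicate lists also hold background entries by design, while the final set is the list the authors kept by reproducibility between replicates (173 peaks, mitochondrial ones included).

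The strongest pooled peak of the nuclear genome was at a snoRNA gene. Its summit lay 31 bp before the 5' end of ZK994.7, inside an intron of pxn-1, a peroxidasin gene, and its pooled signal was 94.2. Of the 248 peaks, 17 were in the final set, a share of 6.85% (95% Clopper-Pearson interval 4.04 to 10.7), against 0.591% of all nuclear pooled peaks. Most of those 17 summits, 12 of them, fell within the 100 bp before the 5' end of their nearest snoRNA gene, where 63 of all 248 summits fell. Counted against any snoRNA gene rather than the nearest, these numbers were 13 and 64. The 100 bp before 8 of the snoRNA genes in the final set are printed here because this stretch holds the summits and because tRNA-type letters recur in it.

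The sequences run 5' to 3' on the snoRNA strand and end at the base before the annotated gene, on ce11 (WBcel235), read from the RefSeq genome. Capitals mark a match to the A box (TGGC, 2 unspecified bases, A, 3 unspecified bases, G), to the B box core (GTTCNANNC), or to a split element chosen after the sequences were seen (AACNNG, then 5 unspecified bases, then TGTC).
ZK994.7, chrV:8500479-8500578, plus strand, split element: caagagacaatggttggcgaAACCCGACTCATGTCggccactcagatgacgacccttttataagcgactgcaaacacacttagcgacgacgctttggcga
C07A9.14, chrIII:9717280-9717379, plus strand, split element: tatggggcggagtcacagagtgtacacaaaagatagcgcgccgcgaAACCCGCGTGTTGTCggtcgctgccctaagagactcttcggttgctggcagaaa
T03F7.8, chrV:11314158-11314257, plus strand, A box and B box core: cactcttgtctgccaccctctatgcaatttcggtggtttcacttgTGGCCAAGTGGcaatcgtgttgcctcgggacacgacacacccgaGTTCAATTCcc
F32E10.10, chrIV:7574022-7574121, plus strand, A box and B box core: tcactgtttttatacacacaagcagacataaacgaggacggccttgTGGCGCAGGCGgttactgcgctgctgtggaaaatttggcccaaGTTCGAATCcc
W03C9.9, chrII:11960798-11960897, plus strand, A box and B box core: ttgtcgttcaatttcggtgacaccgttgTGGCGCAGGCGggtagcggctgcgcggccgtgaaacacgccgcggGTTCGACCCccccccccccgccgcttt
F38E11.14, chrIV:9477700-9477799, minus strand, A box: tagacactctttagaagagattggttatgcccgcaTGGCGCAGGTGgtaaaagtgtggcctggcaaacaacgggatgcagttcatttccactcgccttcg
C27H5.9, chrII:7184079-7184178, minus strand, overlapping pair of A boxes: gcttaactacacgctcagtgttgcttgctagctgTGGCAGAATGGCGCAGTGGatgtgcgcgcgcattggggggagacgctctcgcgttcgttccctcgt
C51F7.4, chrV:12303499-12303598, plus strand, none of these: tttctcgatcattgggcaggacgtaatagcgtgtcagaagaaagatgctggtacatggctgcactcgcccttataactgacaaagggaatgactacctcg

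The peak at ZK994.7 was strong in every replicate list. Its signal was 23.0 in replicate 1, 21.8 in replicate 2 and 53.7 in replicate 3, which ranked it 11, 3 and 2 among the nuclear peaks of those lists. Signal scales differ between lists (the median nuclear peak had 3.87, 3.08 and 5.19), so ranks are compared rather than signals. The peak at C51F7.4, a snoRNA gene overlapping an exon of frm-7 (a FERM domain gene), had a pooled signal of 74.9 and ranked 2, 19 and 11. Its summit lay 35 bp inside the snoRNA gene, the only final-set summit inside a snoRNA gene. The same summit also lay 74 bp before the 5' end of the next snoRNA gene, C51F7.3, which is intronic on the strand of frm-7, has a B box core in the 100 bp before it and was named after its values were seen. Only 4 of the 248 peaks had a matching summit, within 100 bp, among the 1000 strongest nuclear peaks of all 3 lists, which is 1.61% against 0.109% of all nuclear pooled peaks. The other 2 were at F32E10.10, an independent gene (pooled signal 45.1, ranks 40, 707 and 68), and at F38E11.14 in an intron of the cyclic nucleotide-gated channel gene cng-3 (pooled signal 40.8, ranks 34, 63 and 160). Counted by gene and without matching summits, 7 of the 346 snoRNA genes had a peak among the 1000 strongest of every list within 500 bp.

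The remaining final-set peaks were uneven between replicates, and of all 17 replicate 3 ranked 12 highest. A summit within 100 bp was found for all 17 in replicate 3, for 12 in replicate 1 and for 13 in replicate 2. Of all nuclear pooled peaks 46.0%, 33.1% and 20.1% had one in replicates 3, 1 and 2. Among the 1000 strongest of replicates 3, 1 and 2 were 15, 9 and 5 of the 17, against 3.37%, 2.85% and 2.10% of all nuclear pooled peaks. The 17 have high signal in a pooled list made from these same replicates, so shares above those of all peaks were built in. Shares for the other 130 nuclear final-set peaks are not given here. At T03F7.8, in an intron of the cuticlin-like gene cutl-18 on the other strand, the pooled signal was 55.8. The ranks were 172 in replicate 2 and 14 in replicate 3, with no summit within 100 bp in replicate 1. At C27H5.9, in an intron of pdl-1 on the other strand, the pooled signal was 32.9 and replicate 3 ranked it 26. Neither other list held a summit within 100 bp of it. C17H12.36, an independent gene, went the opposite way, with a pooled signal of 32.7. It ranked 16 in replicate 1 but 28115 in replicate 3 and had no summit within 100 bp in replicate 2.

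**Figure D1:**
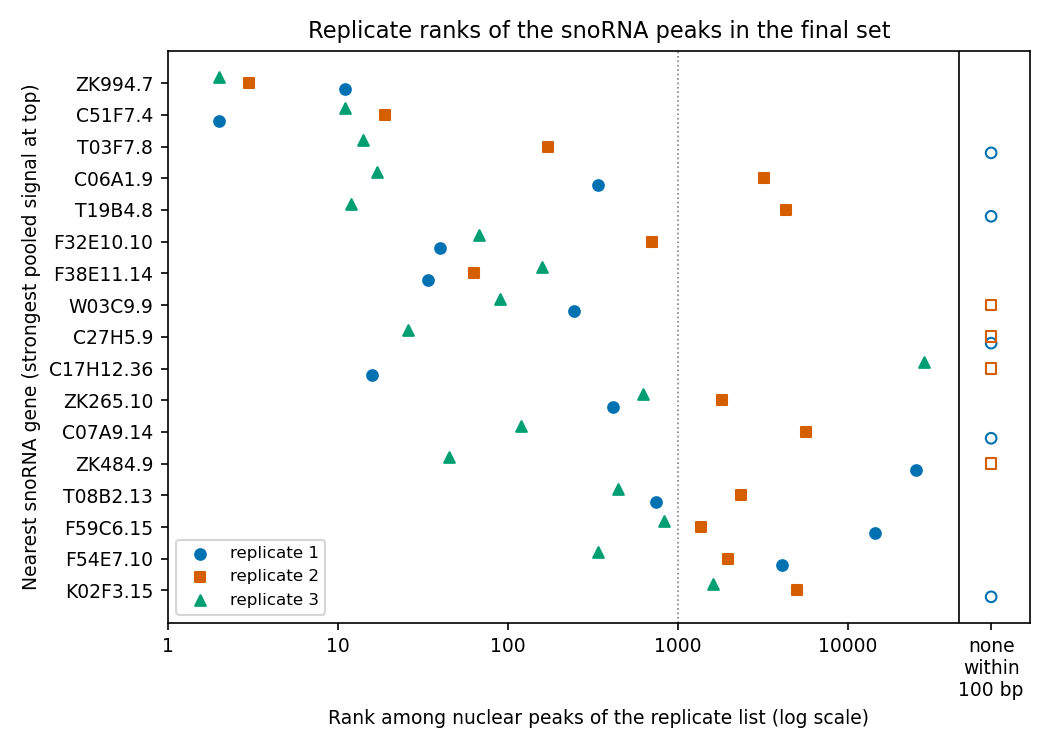
Rank of each of the 17 final-set snoRNA peaks among the nuclear peaks of each replicate list (log axis, rank 1 at left), ordered by pooled signal; open symbols at the right mark peaks with no summit within 100 bp in that list, and the dotted line is rank 1000. ZK994.7 and C51F7.4 sit at ranks 2 to 19 in all 3 lists, while 15 of 17 peaks are left of the dotted line in replicate 3 and 5 in replicate 2.

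The other independent snoRNA genes in the final set were T19B4.8, W03C9.9, ZK265.10 and F59C6.15, with pooled signals of 45.9, 40.5, 32.6 and 29.7. Their summits lay 86, 66, 76 and 80 bp before the 5' end. T19B4.8 ranked 12 in replicate 3, 4334 in replicate 2 and had no match in replicate 1. W03C9.9 ranked 247 and 90 in replicates 1 and 3 and had no summit within 100 bp in replicate 2. A peak among the 1000 strongest of replicate 2 did lie within 500 bp of that gene. ZK265.10 was in all 3 lists at ranks 419, 1819 and 627. The summit at ZK265.10 also lay 635 bp upstream of sre-23, a serpentine receptor gene, inside its promoter window (for a protein-coding gene, the 1000 bp before its start and 200 bp after). Likewise inside promoter windows were the summits at F59C6.15, 802 bp upstream of F59C6.18, and at F38E11.14, 246 bp upstream of wrt-3.

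At intronic snoRNA genes read from the same strand as the host, 2 of 6 final-set summits also lay in the host's own promoter window. The peak assigned to C06A1.9 (pooled signal 48.9) lay 480 bp from that snoRNA gene and 137 bp upstream of its host cdc-48.1, which encodes an AAA ATPase. The peak assigned to F54E7.10 (29.7) lay 277 bp from the snoRNA, 197 bp upstream of the ribosomal protein gene rps-12 and 96 bp upstream of ska-3. The peak at T08B2.13 (30.7), in an intron of the phenylalanyl-tRNA synthetase gene fars-1, lay 91 bp before the snoRNA and 1770 bp into the host. The peak at K02F3.15 (29.4), in an intron of the bZIP factor gene zip-2, lay 463 bp past the snoRNA 5' end.

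Introns on the opposite strand held 4 of the 17, although only 17 of the 248 peaks belonged to that class. Besides T03F7.8 and C27H5.9 these were C07A9.14 in ncx-7, a sodium/calcium exchanger gene (pooled signal 32.6), and ZK484.9 in haf-9, an ABC transporter gene (31.9). All 4 summits were upstream of the snoRNA, by 94, 38, 9 and 75 bp. All 4 ranked highest in replicate 3: C07A9.14 ranked 119 there and 5688 in replicate 2, and ZK484.9 ranked 45 there and 25330 in replicate 1.

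**Figure D2:**
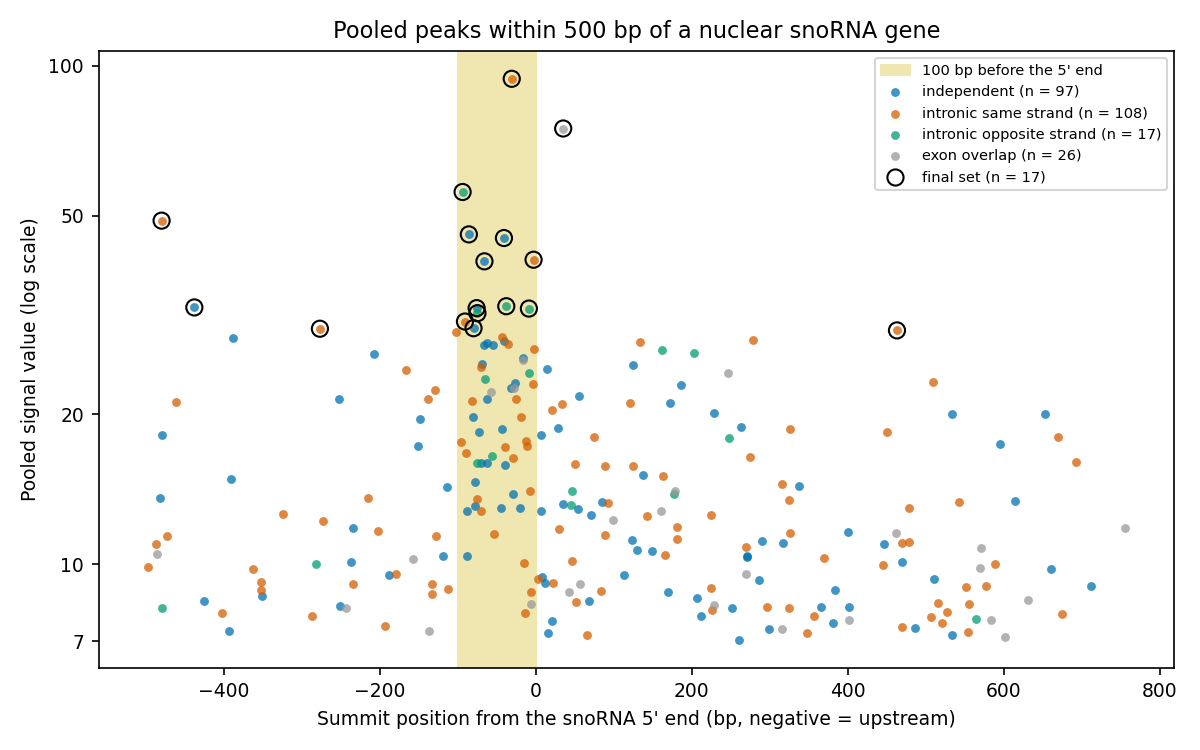
Pooled signal (log axis) against summit position for all 248 peaks, in bp from the 5' end of the nearest snoRNA gene on its own strand, coloured by gene class; rings mark the 17 final-set peaks and the shaded band the 100 bp before the 5' end. Of the rings, 12 are inside the band, and the peaks outside it reach the final set at 5 places.

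Across the whole set the pooled signal ran from 7.05 to 94.2 with a median of 12.8, against a median of 9.35 for all nuclear pooled peaks. The median snoRNA peak stood at the 82.6th percentile of nuclear pooled signal, compared with the 79.4th for 421 peaks at tRNA genes, the 74.4th for 60 at snRNA genes and the 66.7th for 114 at miRNA genes. The shares in the final set were 2.61% at tRNA genes (11 peaks), 5% at snRNA genes (3 peaks) and 2.63% at miRNA genes (3 peaks). Only 2 of the 248 snoRNA peaks were also within 500 bp of a tRNA gene, and neither was in the final set. The q-value does not separate these peaks, since all 17 and 216 nuclear pooled peaks in total share the highest −log10 q of the pooled list, 2.69.

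In each replicate list taken alone, the strongest peaks also had the higher share at snoRNA genes, though the share did not fall at every step of rank. The lists held 234, 210 and 269 nuclear peaks within 500 bp of a snoRNA gene. Among the 1000 strongest nuclear peaks, 2.7%, 3.9% and 5.1% were at snoRNA genes in replicates 1, 2 and 3, and among the rest 0.714%, 0.806% and 0.753%. The strong peaks had the higher share in 3 of 3 replicates, by 3.14 percentage points on average (SD 1.18, n = 3; exact sign-flip permutation test, two-sided, p = 0.25, adjusted over 7 comparisons 0.4375). With 3 replicates 0.25 is the smallest p this test can give, so no comparison of this kind can pass 0.05. The mean difference was larger than its SD over replicates.

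**Figure D3:**
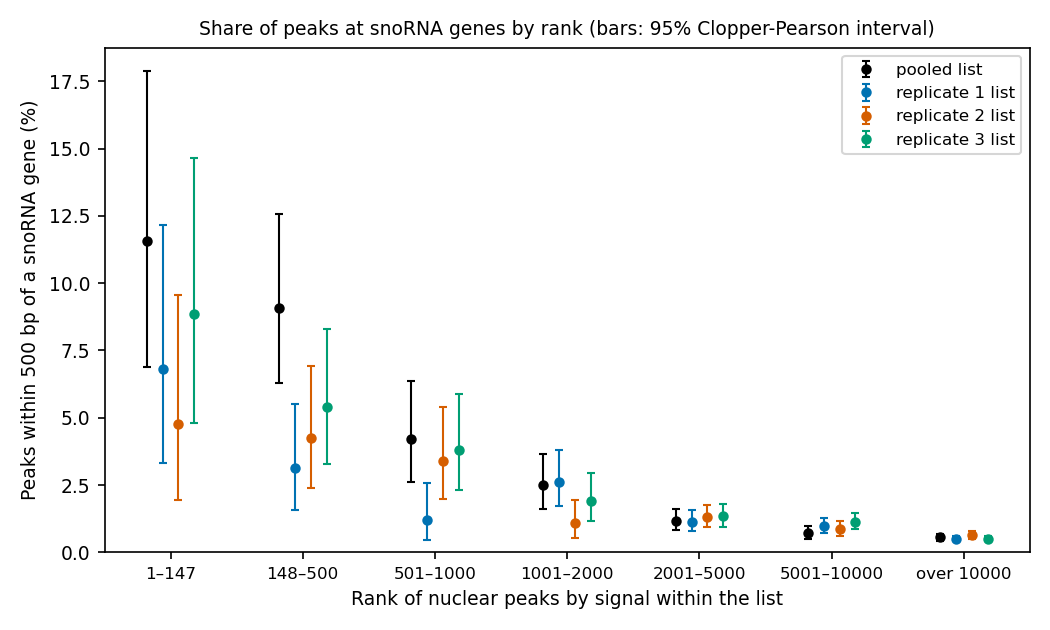
Share of nuclear peaks within 500 bp of a snoRNA gene (%) by signal rank in the pooled list and the 3 replicate lists, with 95% Clopper-Pearson intervals that cover counting error only. In the pooled list the share falls from 11.6% in the strongest bin, which is the nuclear final set, to 0.551% beyond rank 10000. The replicate lists run from 4.76% to 8.84% in the strongest bin down to 0.496% to 0.639% in the weakest, not falling at every step. Replicate 1 had 1.2% at ranks 501 to 1000 and 2.6% at ranks 1001 to 2000. Replicate 2 had 1.1% at ranks 1001 to 2000 and 1.3% at ranks 2001 to 5000.

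Set beside tRNA genes, the difference in the share of strong peaks depended on the replicates and on how many peaks count as strong. Of peaks at snoRNA genes 11.5%, 18.6% and 19.0% were among the 1000 strongest of replicates 1, 2 and 3, and of peaks at tRNA genes 12.7%, 10.5% and 13.6%. The difference was 4.10 points (SD 4.72, n = 3; exact sign-flip permutation test, p = 0.5, adjusted 0.7), positive in 2 of 3 replicates. It was 6.71 points without replicate 1, 2.13 without replicate 2, 3.30 (SD 2.52) with the 500 strongest peaks and 1.93 (SD 0.723) with as many strong peaks as the nuclear final set holds.

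Single positions were then followed from list to list. A summit within 100 bp was present in all 3 replicate lists, at any rank, for 35 of the 248 peaks (14.1%), against 2.57% of all nuclear pooled peaks. A match among the 1000 strongest of at least 1 replicate list was found for 77 (31.0%), against 7.43%. By replicate, 27, 24 and 47 snoRNA peaks matched one of the 1000 strongest peaks of replicates 1, 2 and 3. These were 10.9%, 9.68% and 19.0% of the 248, against 2.85%, 2.10% and 3.37% of all nuclear pooled peaks. The pooled list was made from the same 3 alignments, so these matches are not independent of it.

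Strong peaks were concentrated just upstream of the snoRNA. Of the 70 snoRNA peaks among the 1000 strongest of the pooled list, 36 (51.4%) had their summit in the 100 bp before the 5' end, and of the other 178 peaks 27 (15.2%) did. The median summit of final-set peaks lay 75 bp before the 5' end (interquartile range 91 to 31 bp before it), that of the 70 strong peaks 34 bp before it, and that of the 178 others 86.5 bp past it. Of those 178 summits 34 were inside the snoRNA gene, 79 were past its 3' end and 38 were more than 100 bp before its 5' end.

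In the replicate lists 40.7%, 25.6% and 56.9% of strong snoRNA peaks were in these 100 bp, against 17.9%, 14.6% and 14.2% of the rest. The difference was 25.5 points (SD 15.98, n = 3; exact sign-flip permutation test, p = 0.25, the smallest possible, adjusted 0.4375), higher in 3 of 3 replicates and smallest in replicate 2. Over the wider stretch from 200 bp upstream to the 3' end of the snoRNA, strong peaks had 74.1%, 59.0% and 78.4% of their summits and the rest 37.7%, 40.4% and 39.0%. That difference was 31.5 points (SD 11.2, n = 3; exact sign-flip permutation test, p = 0.25, adjusted 0.4375). The 100 bp stretch was chosen after the positions had been seen.

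**Figure D4:**
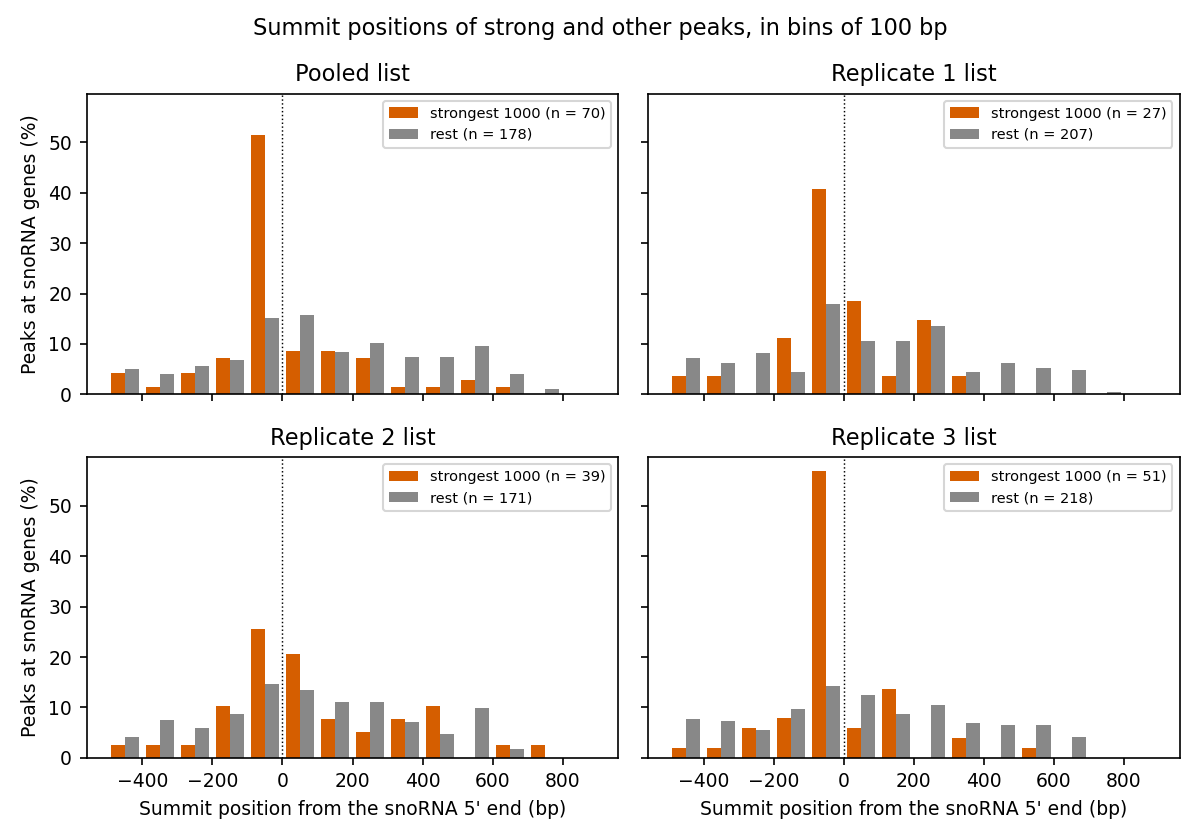
Share of snoRNA peaks (%) by summit position in bins of 100 bp from the snoRNA 5' end, for the 1000 strongest nuclear peaks of a list (orange) and the rest (grey), in the pooled list and each replicate list. The bin just before the 5' end is the tallest orange bar in all 4 panels, at 51.4% in the pooled list and 40.7%, 25.6% and 56.9% in replicates 1, 2 and 3.

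Base composition moved with position. Within 100 bp of the summit the median GC content was 48.3% for the 63 summits in the upstream stretch and 39.3% for the 185 elsewhere. It was 46.8% for the 17 final-set snoRNA peaks, 45.5% for the 130 other nuclear final-set peaks and 37.3% for all nuclear pooled peaks, and the part of GC content in the position of strong peaks was not tested. A run of TTTTT, on either strand within 50 bp of the summit, was found at 3 of the 17 final-set snoRNA peaks (17.6%), at 53 of the 130 other nuclear final-set peaks (40.8%), at 49.8% of the 231 other snoRNA peaks and at 62.7% of all nuclear pooled peaks.

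Of the 346 annotated nuclear snoRNA genes, 203 (58.7%) had at least 1 of the 248 peaks within 500 bp. By position 145 of the genes were intronic on the host's strand, 124 were independent of protein-coding genes, 50 overlapped an exon and 27 were intronic on the opposite strand. A pooled peak was near 62.1% of both same-strand intronic and independent genes, 48% of exon-overlapping genes and 44.4% of opposite-strand genes. The nearest snoRNA was shared with another peak for 107 of the 248, so peaks are not independent of each other.

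Same-strand intronic and independent genes differed by less than the replicate spread in how often a strong peak of a replicate lay within 500 bp. The shares were 8.28%, 12.4% and 16.6% of intronic genes and 8.87%, 12.1% and 13.7% of independent genes in replicates 1, 2 and 3. The difference was 0.855 points (SD 1.78, n = 3; exact sign-flip permutation test, p = 0.75, adjusted 0.875), and its sign turned at a distance of 200 bp, with the 500 strongest peaks and without replicate 3. Opposite-strand genes had 3.70%, 11.1% and 33.3%, which differed from independent genes by 4.49 points (SD 13.3, n = 3; exact sign-flip permutation test, p = 1, adjusted 1). That difference was positive in replicate 3 alone and was −3.08 points without it.

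The tRNA-type letters were searched in the 100 bp before all 346 genes, on the snoRNA strand. An A box or B box core was present before 52 genes, and the split element before 36, with 1 gene holding both kinds. A final-set summit lay in this stretch of 13 snoRNA genes, of which 9 had an A or B box, 3 had the split element, and 12 had either. A summit among the 1000 strongest pooled peaks lay in it for 37 genes, of which 19 had an A or B box and 7 the split element. Either was present before 26 of the 37 (70.3%), against 61 of the other 309 snoRNA genes (19.7%). The split element was chosen after such sequences had been seen, so counts that include it are not independent of these peaks. In the 100 bp before protein-coding genes the A box was found in 0.571%, the B box core in 1.43% and the split element in 0.135%.

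Positions of the letters were narrow. The A box was centred a median of 53 bp before the snoRNA 5' end (interquartile range 48 to 59). The centre of the B box core lay 10.5 bp before it (8 to 19) and that of the split element 52 bp (51 to 54). In the 18 genes with both boxes the A box always came before the B box core, with 36 to 52 bp between their starts and a median of 44. None of these 100 bp stretches overlapped an annotated tRNA gene. Among strong pooled peaks at genes with an A box the summit lay a median of 33.5 bp from its centre, and 15 of 18 lay within 50 bp. For the B box core the median was 45 bp, with 9 of 17 within 50 bp, and for the split element 65 bp, with 7 of 15.

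snoRNA genes with an A or B box upstream more often had a strong peak nearby. The shares in replicates 1, 2 and 3 were 17.3%, 21.2% and 36.5% of the 52 genes with a box and 5.78%, 9.86% and 11.6% of the 294 without. The difference was 15.9 points (SD 7.83, n = 3; exact sign-flip permutation test, p = 0.25, the smallest possible, adjusted 0.4375), positive in 3 of 3 replicates, and was chosen after the sequences had been seen. Genes with the split element had 16.7%, 22.2% and 30.6%, and the 259 with neither had 4.25%, 8.11% and 8.88%. The upstream stretches differed in GC content too, with medians of 54% with a box, 56% with the split element and 40% with neither, and the part of GC content was not tested.

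**Figure D5:**
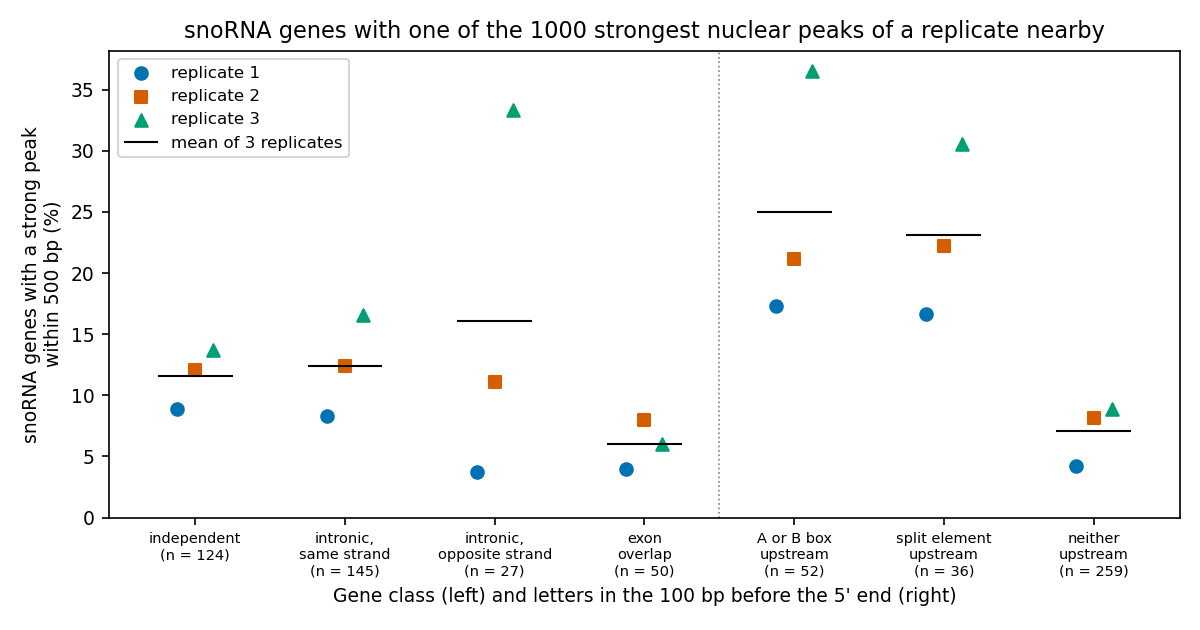
Share of snoRNA genes (%) with one of the 1000 strongest nuclear peaks of a replicate within 500 bp, by gene class (left) and by the letters in the 100 bp before the 5' end (right); symbols are the 3 replicates and lines their means. The 3 symbols for genes with a box (17.3% to 36.5%) or the split element (16.7% to 30.6%) lie above all 3 for genes with neither (4.25% to 8.88%), while those of intronic same-strand and independent genes overlap.

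The annotated genes were also searched for letters of the snoRNA classes themselves. C/D letters (TGATGA in the first 40 bases and CTGA in the last 20) were found in 16 genes, of which 14 had a pooled peak, and ACA 3 bases before the 3' end in 58, of which 44 had one. A strong peak in at least 1 replicate was near 56.3% of the C/D group and 34.5% of the ACA group, against 25.4% of all snoRNA genes. No match says only that these letters were not in the searched bases.

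Few peaks at same-strand intronic snoRNA genes, strong or not, lay in the promoter window of the host, although the distance rule itself favours places near the snoRNA. Of all 108 peaks of this class 9 were inside that window and 24 were in the 100 bp before the snoRNA. Of 26 such peaks among the 1000 strongest of the pooled list, 3 were inside that window, 11 were in the 100 bp before the snoRNA and 12 were at neither. cdc-48.1, with 2 intronic snoRNA genes, had 4 peaks, the most of any host, with pooled signals of 48.9, 16.02, 11.4 and 8.96. egl-27, an MTA-related chromatin gene, had 3 (21.1, 13.3 and 7.497). The ribosomal protein genes rpl-6 (23.2, 12.6 and 9.88) and rps-29 (14.5, 11.0 and 9.996) also had 3 each, and 33 hosts had 2. Of the peaks at these 4 named hosts, the cdc-48.1 promoter peak alone was in the final set. Ribosomal protein genes named rpl or rps made up 13 of 126 same-strand hosts, with 19 snoRNA genes and 17 peaks. Of these peaks the rps-12 peak was the only one in the final set. Hosts under other names were not counted.

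Genes for snoRNP proteins, RNA polymerase III factors and some other proteins were looked up as a separate list. Of 30 list genes in the annotation 19 (63.3%) had a pooled peak in the promoter window, against 32.2% of 19973 protein-coding genes, and 1 of the 30 (3.33%) had a final-set peak there, against 77 of all protein-coding genes (0.386%). That gene was larp-1, with a pooled signal of 29.6 at a summit 676 bp upstream. It encodes an RNA-binding protein that is neither a snoRNP protein nor a polymerase III factor. No listed gene of those kinds had a final-set peak there. After larp-1 the highest signal of the list was 22.7, at snpc-3.4. fib-1, which encodes the methyltransferase of C/D particles, had 8.12, dkc-1, the pseudouridine synthase of H/ACA particles, had 7.32, and nola-3, a small H/ACA protein, had 19.0. The median nuclear pooled peak had 9.35, so the fib-1 and dkc-1 values lay below it.

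By chromosome the 17 final-set snoRNA peaks were 5 on I, 3 each on II, III, IV and V, and 0 on X, which held 18 of the 248 peaks and 33 of the 346 genes. Their summits were in introns (9) or between genes (8), and none of the 54 snoRNA peaks with a summit in an exon was in the final set. The share over all nuclear peaks with a summit in an exon is not given here. Outside promoter windows of protein-coding genes 12 of 164 were in the final set (7.32%), and inside them 5 of 84 (5.95%). At the edge of the distance rule, 21 peaks at 451 to 500 bp had signals of 7.75 to 48.9 (median 10.8) and 13 peaks at 501 to 550 bp had 7.61 to 19.1 (median 10.1). Just below the final set by signal stood the peaks at C10C6.8 in catp-8 (29.2) and at C27H6.5 in unc-41 (28.5), named after their values were seen.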

How the data were processed

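Peak lists on ce11 were used, which the authors deposited for each of the 3 biological replicates, for the replicates pooled, and as a final set. Per the deposited file notes, each list came from alignments with a control, technical libraries shared an alignment, and the final set was chosen by the irreproducible discovery rate. The authors' signal value and −log10 q-value were used as deposited. The sources used here name no aligner, peak caller or settings, and neither scale nor depth is known. Lists on ce10 were not used here.

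A summit was taken from each interval's start and offset, counted from 1, and mitochondrial peaks were left out. All 248 intervals were 320 bp wide. Genes came from Ensembl release 115 (WBcel235, which is ce11) and bases from the RefSeq genome of that build. A peak belonged to its nearest snoRNA gene within 500 bp. Host classes used protein-coding genes. Motifs were searched within 50 bp of summits on both strands, and GC within 100 bp. Strong peaks were the 1000 strongest nuclear ones of a list by signal, and summits within 100 bp matched between lists. Differences per replicate were tested by exact two-sided sign-flip permutation with Benjamini-Hochberg adjustment over 7 comparisons. Clopper-Pearson intervals of 95% cover counting error only. The comparisons by signal rank and by the 100 bp before the 5' end were tested on simulated data, the others were not. Alternatives covered distances, numbers of strong peaks, match distances, tRNA neighbours, promoters, host definition and left-out replicates.

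The regions, lists and motifs were chosen with earlier results of these data known. Named genes were those of all final-set snoRNA peaks, the 15 highest signals, and the peaks among the 1000 strongest of all 3 lists. The hosts with most peaks were also named (4 hosts, since 33 tied next), as were genes of the separate protein list with a final-set promoter peak. From that list fib-1, dkc-1, nola-3 and snpc-3.4 were added after their values were seen. Scripts ran in Python 3.11.15 with pandas 2.3.3, scipy 1.17.1, numpy 2.4.6 and, for plots, matplotlib 3.10.9.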

Additional observations from a re-analysis of the deposited data

How the results depend on the processing

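The difference between same-strand intronic and independent snoRNA genes reversed at a distance of 200 bp (−1.52 points), with the 500 strongest peaks (−1.21) and without replicate 3 (−0.139), and that between opposite-strand and independent genes reversed without replicate 3 (−3.08). Leaving out each replicate in turn gave −0.139 to 1.58 points for the same-strand comparison and −3.08 to 9.32 for the opposite-strand one. With the final set restricted to its peaks above the median signal, the share of the 248 peaks was 3.23%, since that set has fewer peaks. The share of peaks matched in all replicate lists, 14.1%, was 4.03% at a match distance of 50 bp, 25.4% at 200 bp, 1.61% among the 1000 strongest of each list and 19.6% for snoRNA distances up to 200 bp. With 1 list left out in turn and a match in both remaining lists required, it was 19.4% to 29.0%. Shares over all nuclear pooled peaks at these changed settings are not given here, apart from 0.109% among the 1000 strongest. The other 49 values kept their direction or stayed within their limits. Unknown depth limits what a missing summit in a replicate list can show.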
